A study of Mus musculus with 15 samples.

Results

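The clock repressors measured here were Per1, Per2, Per3, Cry1, Cry2, Nr1d1 and Bhlhe41. They were taken by gene name, from GENCODE M21, out of a table of 10370 transcripts of 7740 named genes. All 7 genes were present with 9 transcripts. GENCODE M21 annotates 2 to 6 transcripts for each of these genes, and the gene sums and shares below hold only the listed ones. The genes were chosen with earlier results of these data known, so counts of called members are a description and no independent support. The libraries hold total RNA from dissected cortex of male C57BL/6 mice (the J substrain, per the study's methods) labelled 12 weeks old, 1 month after the procedure. In the high-frequency head impact (HF-HI) group, 8 libraries came from mice that had received daily sessions of successive impacts under isoflurane, and in the Sham group 7 came from mice that were anesthetized alongside and never struck. Strain, sex and anesthesia were shared by both groups.

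In the mammalian clock, CLOCK and BMAL1 (the product of Arntl) bind E-boxes and switch on the Per and Cry genes, whose proteins return to the nucleus and shut off that activity. Nr1d1 (REV-ERB alpha) represses Arntl through nuclear receptor sites, and Bhlhe41 (DEC2) competes at E-boxes, so that the loop has several arms of repression. Most of these transcripts are known to follow the time of day in cortex, and Per1 and Per2 are also known to respond to neuronal activity through cyclic AMP response elements. The hour of tissue collection in each group is not given in the sources used here, so that a difference in the hour and a difference between the groups cannot be told apart.

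The listed transcripts held 5798810 to 10582858 reads in the Sham libraries and 3496103 to 8666307 in the HF-HI libraries, and the size factors of the HF-HI libraries were lower, by 0.55 on the log2 scale on average (exact permutation, two-sided, p = 0.0280). HF-HI replicate 2 stood apart on the first principal component, at 12.6 against −3.35 to 0.72 for the other libraries. All 7 markers of cortical excitatory neurons were listed. Levels are given as normalized counts, which are reads divided by the size factor of the library. Each member value rested on 62 to 1201 reads, and no member transcript was at 0 in any library.

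Promoter sequence was available for 6 of the 7 genes (RefSeq, GRCm38.p6), all but Per2. The 250 bases before each start site were searched on both strands for the E-box CACGTG, the D-box TTANGTAA (N is any base), the half-site TGACG of the cyclic AMP response element, and the nuclear receptor half-site AGGTCA. Of 32851 promoter windows of the same length, 6.02% held the E-box, 2.06% the D-box, 17.8% TGACG and 14.0% AGGTCA. The sequences below show the members with an E-box or a D-box, in capitals, 5′ to 3′ on the strand of the gene, up to the first base of any annotated exon. They lie at chr11:69098699-69098947 (plus strand, Per1), chr10:85185065-85185304 (minus strand, Cry1), chr6:145865559-145865670 (minus strand, Bhlhe41) and chr4:151044666-151044915 (minus strand, Per3).
Per1: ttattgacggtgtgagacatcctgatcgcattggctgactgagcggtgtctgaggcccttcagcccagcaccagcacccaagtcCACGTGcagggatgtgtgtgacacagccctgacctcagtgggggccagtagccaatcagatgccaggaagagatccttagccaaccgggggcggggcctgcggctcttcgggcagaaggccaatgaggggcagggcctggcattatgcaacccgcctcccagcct
Cry1: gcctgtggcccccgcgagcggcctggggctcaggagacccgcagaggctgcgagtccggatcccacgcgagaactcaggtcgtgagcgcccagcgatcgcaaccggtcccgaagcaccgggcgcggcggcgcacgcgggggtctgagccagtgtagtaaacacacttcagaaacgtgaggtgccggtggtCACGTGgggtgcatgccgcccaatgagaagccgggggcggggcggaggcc
Bhlhe41: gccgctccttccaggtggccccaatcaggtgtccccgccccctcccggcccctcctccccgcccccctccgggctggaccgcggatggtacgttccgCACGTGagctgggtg
Per3: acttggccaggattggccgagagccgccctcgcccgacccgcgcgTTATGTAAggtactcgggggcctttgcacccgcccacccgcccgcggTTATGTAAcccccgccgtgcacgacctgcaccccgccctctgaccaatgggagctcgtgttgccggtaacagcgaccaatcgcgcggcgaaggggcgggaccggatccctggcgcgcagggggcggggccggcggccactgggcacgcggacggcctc

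An E-box was present in Per1, 166 bases before the RefSeq start, in Cry1 at 60 bases and in Bhlhe41 at 153 bases. Per3 instead held the D-box letters at 205 and at 158 bases, both as TTATGTAA, and no E-box. Cry2 and Nr1d1 held neither set of letters in these windows. TGACG, on either strand, was found in the windows of both Per1 start sites that RefSeq lists and in those of Cry1 and Cry2, and AGGTCA in the Per1 window shown. A match is a description of the letters in the window.

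Reads of Per1 and of Per3 are divided between listed transcripts of the gene, so the order here is of transcripts and does not rank genes. The member transcripts differed widely in level per length. Cry2 (ENSMUST00000090559, chr2:92403646-92434043, minus strand) had the highest, 193 ± 18.0 normalized counts per kb (SD over the 15 libraries), followed by Nr1d1 (ENSMUST00000064941, chr11:98767932-98775333, minus strand) with 178 ± 24.6. Cry1 (ENSMUST00000020227, chr10:85131700-85185064, minus strand) had 59.8 ± 4.48 normalized counts per kb and the protein-coding Per3 transcript (ENSMUST00000103204, chr4:151003652-151044665, minus strand) 57.2 ± 5.10. The Per1 transcripts, ENSMUST00000021271 (chr11:69098948-69109960, plus strand, 23 exons) and ENSMUST00000101004 (chr11:69095217-69106458, plus strand, 18 exons), had 50.8 ± 14.3 and 50.2 ± 12.8. Bhlhe41 (ENSMUST00000032386, chr6:145858243-145865558, minus strand) followed with 40.7 ± 4.78 normalized counts per kb, Per2 (ENSMUST00000069620, chr1:91415982-91459324, minus strand) with 38.6 ± 9.62, and the retained-intron Per3 transcript (ENSMUST00000138584) with 27.0 ± 4.52.

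A single gap in this order was free of overlap. Nr1d1 was above Cry1 in 15 of 15 libraries, whereas all other neighbours in the order had overlapping ranges. Cry2 exceeded Nr1d1 in 12 of 15 libraries, Cry1 exceeded the coding Per3 transcript in 10, that Per3 transcript exceeded Per1 in 8, and the Per1 transcripts were in either order in near equal numbers (8 of 15). The members also differed in how far they varied. The coefficient of variation over the 15 libraries was 28.1% and 25.6% for the Per1 transcripts and 24.9% for Per2, against 7.48% for Cry1, 8.93% for the coding Per3 transcript and 9.33% for Cry2, with Bhlhe41 (11.7%), Nr1d1 (13.8%) and the retained-intron Per3 transcript (16.7%) between them. These values include the difference between the groups. Within Sham and within HF-HI, the coefficients were 18.3% and 19.4% for Per2, 7.32% and 12.0% for Nr1d1, and 7.84% and 7.12% for Cry1. Among 200 transcripts of like mean, the spread of Cry2 was at percentile 64.2, the retained-intron Per3 transcript at 36.8 and Cry1 at 1.99.

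**Figure D1:**
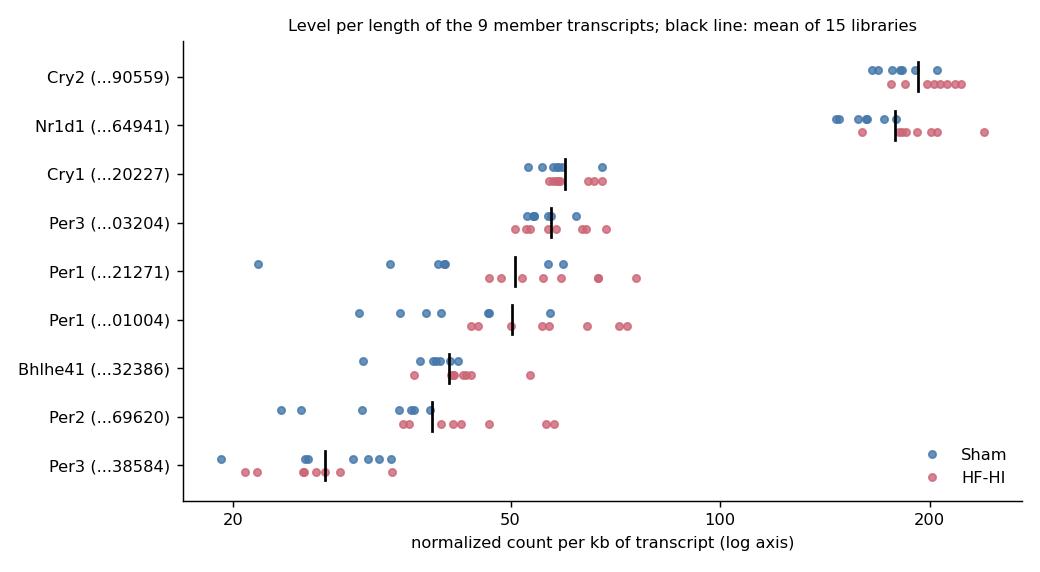
Level per length of the 9 member transcripts, in normalized counts per kb on a log axis, with a point for each Sham (blue) and HF-HI (red) library and a black line at the mean of all 15; the last 5 digits of each transcript are given. Cry2 (193) and Nr1d1 (178) sit apart from the other transcripts, and the Per1 and Per2 points are the most spread.

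The comparison of HF-HI with Sham asked whether the repressors differed 1 month after the impacts. Per1, Per2, Nr1d1 and Cry2 had higher normalized counts after impact and passed an unadjusted threshold of 0.05, here termed called, while Per3, Cry1 and Bhlhe41 did not pass it. By transcript, 5 of 9 member transcripts were called higher (limma on the deposited values) and 0 lower, against a background of 4.94% of all transcripts called higher, 3.9% lower and 8.83% in either direction. No member passed the study's adjusted threshold of 0.1, and 0.0% of all transcripts did (limma with Benjamini-Hochberg adjustment, 916 of 10370 at an unadjusted p under 0.05, and 0 also with voom on the recovered reads). The Per1 transcripts share 2591 exon bases, 55.5% of the longer and 73.9% of the shorter, so that their calls are not independent. In bulk tissue, fewer cells of a type and less RNA per cell cannot be told apart.

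With reads summed per gene (limma voom), 4 of 7 members were called higher and 0 lower at an unadjusted p under 0.05. Among all 7869 gene sums, 5.1% were called higher, 4.24% lower and 9.34% in either direction, and 0.0% passed the adjusted threshold. With library sizes from summed reads, 67.6% of the called genes were higher, against 54.6% here. The median log2 ratio of the member transcripts was 0.16, against −0.0019 over all transcripts.

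**Figure D2:**
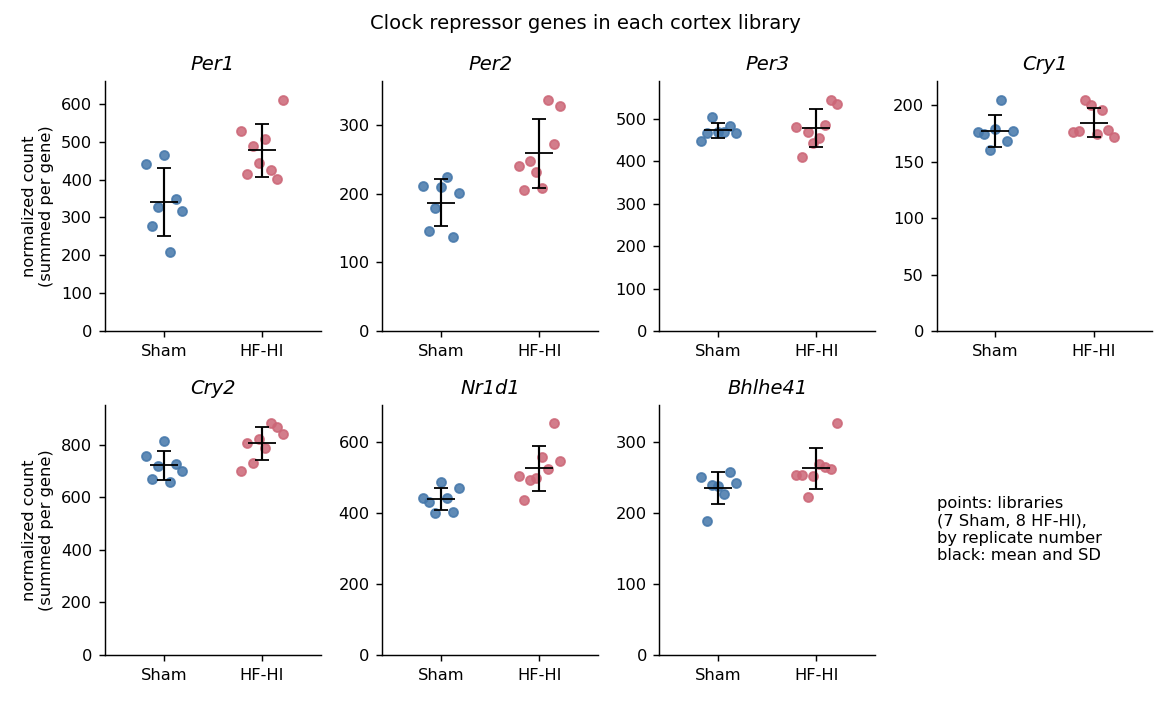
Summed normalized count of each member gene (vertical axis from 0) in the 7 Sham and 8 HF-HI libraries, each a point in the order of its replicate number, with the mean and SD in black. For Per1, Per2 and Nr1d1 most HF-HI points lie above most Sham points (4, 6 and 7 of 8 above every Sham library), and for Per3 and Cry1 the groups cover each other.

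Per1 is a period gene known for its rapid response to light and neuronal activity. The longer Per1 transcript ranged from 101 through a median of 187 to 278 normalized counts in Sham and from 218 through 268 to 353 in HF-HI. The shorter ranged from 106 through 139 to 199.6 in Sham and from 154 through 197 to 257 in HF-HI. All 8 HF-HI libraries were above the Sham median in both transcripts, but the groups overlapped through Sham replicates 1 and 4, and in the shorter also Sham replicate 6, and 3 HF-HI libraries were above every Sham library in each. Means were 194 ± 60.7 (SD, n = 7) and 275 ± 47.5 (n = 8) for the longer transcript and 147 ± 31.2 and 202 ± 39.8 for the shorter, which are log2 ratios of 0.50 and 0.46. On the deposited variance-stabilized scale the differences were 0.13 (SE 0.042, limma adjusted p = 0.404) and 0.099 (SE 0.032, adjusted p = 0.399).

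Summed per gene, Per1 averaged 341 ± 89.2 normalized counts over the Sham libraries and 477 ± 70.8 over the HF-HI libraries. The log2 difference was 0.54 (SE 0.15, limma voom adjusted p = 0.264). Exact permutation, here and for the other gene sums, was of the group means of log2(summed normalized count + 1). For Per1 these means differed by 0.515 (exact permutation, two-sided, p = 0.00482). Sham replicate 5 was the lowest library, at 208, and HF-HI replicate 8 the highest, at 611. The share of the longer transcript in the Per1 sum was 56.3% ± 4.34 in Sham and 57.7% ± 5.51 in HF-HI, a difference smaller than the spread between libraries (exact permutation, two-sided, of the log2 ratio of the transcripts, p = 0.580, adjusted p = 0.580 over the 2 genes tested).

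Per2, whose protein scaffolds the repressor complex, ranged from 137 through a median of 201 to 224 normalized counts in Sham and from 205 through 244 to 337 in HF-HI. HF-HI replicates 6 and 8 were the highest, and Sham replicates 2 and 6 the lowest. Of the HF-HI libraries, 6 of 8 were above every Sham library, and 4 of 7 Sham libraries were below every HF-HI library. Means were 187 ± 34.2 and 259 ± 50.3, a log2 ratio of 0.47. The variance-stabilized difference was 0.11 (SE 0.033, limma adjusted p = 0.351), and the gene sum gave 0.46 (SE 0.13, limma voom adjusted p = 0.275, exact permutation p = 0.00357).

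Per3, the period gene that is dispensable for the core rhythm, was near level between the groups. Its coding transcript ranged from 317 through a median of 324 to 372 normalized counts in Sham and from 305 through 344 to 411 in HF-HI, so that the Sham range lay inside the HF-HI range. The mean was 335 ± 19.0 in Sham and 350.4 ± 37.9 in HF-HI (log2 ratio 0.066, limma adjusted p = 0.822). Its retained-intron transcript had 138 ± 24.9 and 128 ± 19.97 (log2 ratio −0.11, adjusted p = 0.848), and the Per3 sum gave 473 ± 17.4 and 478 ± 44.99 (exact permutation p = 0.835, limma voom adjusted p = 0.932). The coding transcript made up 70.9% ± 4.65 of the sum in Sham and 73.2% ± 3.36 in HF-HI (exact permutation, p = 0.305). Without Sham replicate 7, where the retained-intron transcript was lowest at 94.2, that p was 0.0433.

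Cry1, the cryptochrome needed for a robust rhythm in single cells, had the lowest coefficient of variation of the member transcripts over the 15 libraries. It ranged from 160.2 through a median of 177 to 205 normalized counts in Sham and from 172 through 177 to 205 in HF-HI. No HF-HI library was above every Sham library, and the mean was 177 ± 13.9 in Sham and 185 ± 13.1 in HF-HI (log2 ratio 0.059, limma adjusted p = 0.832). Cry2, the cryptochrome whose loss lengthens the period, ranged from 658 through 720.3 to 815 in Sham and from 699 through 815 to 882 in HF-HI. The 4 highest HF-HI libraries were above every Sham library and HF-HI replicate 1 was below the Sham median. Its means were 721 ± 53.6 and 805 ± 63.2, a log2 ratio of 0.16. The variance-stabilized difference of Cry2 was 0.066 (SE 0.024, limma adjusted p = 0.448), and with the log2 size factor of the library as a covariate it was 0.053, which ended the call (adjusted p = 0.959). The Cry2 gene sum gave 0.15 (limma voom adjusted p = 0.431, exact permutation p = 0.0199) and, with the covariate, 0.12, which was not called (adjusted p = 0.842).

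Nr1d1, the haem-binding nuclear receptor that represses Arntl, ranged from 399 through a median of 441 to 487 normalized counts in Sham and from 435 through 513 to 652 in HF-HI. All but HF-HI replicate 2 of the HF-HI libraries, 7 of 8, were above every Sham library, the most of any member. Means were 439 ± 32.1 and 525.8 ± 63.2, a log2 ratio of 0.26. The variance-stabilized difference was 0.089 (SE 0.026, limma adjusted p = 0.351) and the gene sum gave 0.25 (SE 0.065, limma voom adjusted p = 0.213, exact permutation p = 0.00342). Nr1d1 overlaps a Thra transcript on the opposite strand over 263 bases, 9.67% of its length. The libraries were prepared with a stranded kit, but whether the counting used strand is not given in the sources used here. Summed Thra was not called, with means of 2913 ± 255 for Sham and 2904 ± 165 for HF-HI (limma voom adjusted p = 0.974).

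Bhlhe41, an E-box repressor tied to sleep length, ranged from 188 through a median of 239.7 to 257 normalized counts in Sham and from 223 through 258 to 327 in HF-HI. Sham replicate 2 was below the other Sham libraries and HF-HI replicate 8 above the other HF-HI libraries, while the rest of the groups overlapped. The mean was 235 ± 22.7 in Sham and 263 ± 29.2 in HF-HI, a log2 ratio of 0.16 that was not called (limma adjusted p = 0.590). The gene sum was not called by voom (adjusted p = 0.541) and had p = 0.0443 by exact permutation of the group means, so that Bhlhe41 lay at the threshold. A transcript on the opposite strand, Gm43909, overlaps 726 bases of Bhlhe41, 11.8% of its length, and was not analysed here.

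**Figure D3:**
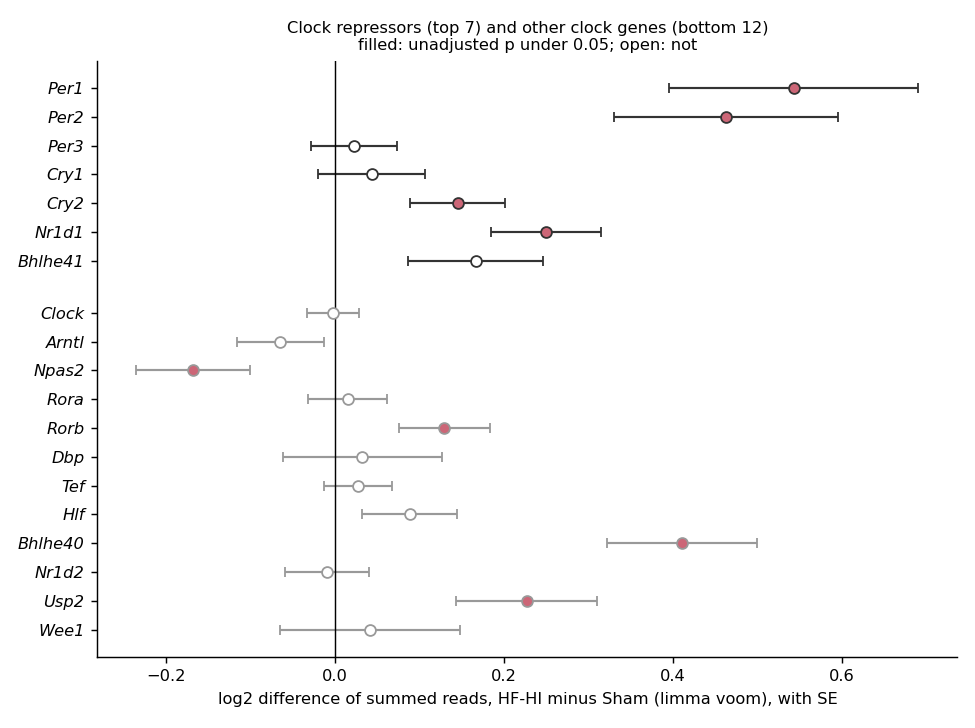
Log2 difference of summed reads, HF-HI minus Sham, with its SE (limma voom, 7 Sham and 8 HF-HI libraries), for the 7 members above and 12 other clock genes below; filled points have an unadjusted p under 0.05. The largest member values are those of Per1 (0.54) and Per2 (0.46), and Per3 (0.022) and Cry1 (0.044) sit near 0.

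Whether related genes differed in their response was examined with ratios within each library, which do not depend on scaling. The 6 ratios were chosen after the values above were seen, each was tested by an exact two-sided permutation over the 15 libraries, and p-values were adjusted over the 6. Per1 relative to Per3 was higher in HF-HI by 0.50 on the log2 scale (exact permutation p = 0.00793, adjusted p = 0.0121), and above the Sham median in 8 of 8 HF-HI libraries. Per2 relative to Per3 was higher by 0.46 (exact permutation p = 6.2e-04, adjusted p = 0.00373), with 7 of 8 HF-HI libraries above every Sham library. Because the values that prompted these ratios are those tested, the p-values are no independent support for a difference between paralogs.

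Per1 relative to Per2 differed by 0.047 (exact permutation p = 0.830, adjusted p = 0.830), with SDs of 0.47 in Sham and 0.30 in HF-HI. Cry2 relative to Cry1 differed by 0.098 (exact permutation p = 0.272, adjusted p = 0.327), so that the call of Cry2 and its absence in Cry1 are not shown to differ. Nr1d1 relative to its paralog Nr1d2 was higher by 0.27 (exact permutation p = 0.00808, adjusted p = 0.0121), and Bhlhe40 relative to Bhlhe41 was higher by 0.25 (p = 0.00373, adjusted p = 0.0112). None of these 6 calls changed when any 1 library was left out, with p from 5.8e-04 to 0.0190 for the 4 ratios that were called.

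Of the clock activators, the partners of the members in the loop, 5 of 7 genes were listed with 6 transcripts, of which 1 was called higher and 1 lower. Clock itself averaged 1289 ± 52.8 normalized counts over Sham and 1291 ± 44.1 over HF-HI (limma adjusted p = 0.988), and Arntl, the target of Nr1d1, 318 ± 12.3 and 305 ± 25.8 (adjusted p = 0.779). Npas2, which can stand in for Clock in the forebrain, was the one called lower, at 292 ± 16.1 and 262 ± 31.1 (adjusted p = 0.561). The transcript called higher was of Rorb, ENSMUST00000040153, at 126 ± 83.4 and 224 ± 97.6 (adjusted p = 0.555). The other Rorb transcript, ENSMUST00000112832, was more abundant and near level, at 972 ± 152 and 974 ± 124 (adjusted p = 0.991). By gene sum Rorb was called higher, at 1099 ± 80.4 and 1199 ± 86.2.

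Of the E-box and D-box outputs, 7 of 9 genes were listed with 9 transcripts, of which 2 were called higher and 0 lower. Bhlhe40 (DEC1), the paralog of Bhlhe41, ranged from 523 through 729 to 763 normalized counts in Sham and from 759 through 861 to 1080.5 in HF-HI, with only HF-HI replicate 2 below the highest Sham library. Its means were 668 ± 97.0 and 885 ± 102, a log2 ratio of 0.40 (limma adjusted p = 0.227). Usp2, a deubiquitinase of clock proteins, had 199.96 ± 21.9 and 236 ± 26.5 (adjusted p = 0.448). By contrast Dbp, a direct E-box target, was at 320.4 ± 44.0 and 323 ± 45.6 (adjusted p = 0.987), Nr1d2 at 1302 ± 65.6 and 1289 ± 106 (adjusted p = 0.952), and Hlf at 1524 ± 119 and 1621 ± 137 (adjusted p = 0.694). The 3 Tef transcripts were not called (lowest adjusted p = 0.653). Arntl2, Nfil3 and Ciart were not analysed here.

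Of the genes known to modify or bind PER and CRY proteins (kinases, phosphatases, ubiquitin ligases, the deubiquitinase Usp7 and Timeless), 10 of 12 genes were listed with 17 transcripts, and both calls were in Usp7, 1 transcript higher (480.3 ± 172 against 677 ± 187 normalized counts, limma adjusted p = 0.554) and 1 lower (451 ± 62.1 against 264 ± 152, adjusted p = 0.426). No modifier was called by gene sum. The activity-responsive genes were taken as a list because Per1 and Per2 are known to respond to activity. This list, like the others, was chosen with earlier results of these data known. Of its 15 transcripts, 11 were called higher and 0 lower, against 4.94% and 3.9% of all transcripts. Those of Jun, Egr3, Btg2 and Npas4 were not called. The summed level of the list covered 3330 to 8068 normalized counts over the Sham libraries and 7505 to 10699.8 over the HF-HI libraries. The largest parts of this sum were the Arc transcript ENSMUST00000023268 (means of 1292 in Sham and 2067 in HF-HI) and Egr1 (1004 and 1435). With group means removed, this sum correlated with Per2 at r = 0.53, Bhlhe41 at 0.49, Cry2 at 0.36 and Per1 at 0.34 over the 15 libraries. For Nr1d1, Per3 and Cry1 r was 0.31, 0.17 and 0.045. In the same order of members, r was 0.58, 0.49, 0.013, 0.13, 0.38, 0.64 and −0.038 for the sum of the E-box and D-box outputs. For the glucocorticoid-responsive genes it was 0.27, 0.24, 0.015, −0.16, 0.46, 0.35 and 0.32. For the clock activators it was 0.22, 0.23, −0.27, −0.15, 0.11, 0.23 and 0.24. For the PER and CRY modifiers it was 0.14, 0.22, −0.42, 0.19, −0.080, 0.14 and 0.24. The part of these sums in the difference of the members was not tested. Of the glucocorticoid-responsive genes, 8 of 11 were listed with 10 transcripts, of which 1 (Zbtb16) was called higher and 0 lower, and by gene sum 2 were called higher, Zbtb16 and Sgk1.

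Markers of cells and regions that a cortical dissection could include were set beside the members. The striatal sum was 9081 ± 1392 normalized counts in Sham (7110 to 10829.8) and 7515 ± 1684 in HF-HI (5063 to 10294), 8 of 9 markers were listed (all but Drd2), and 3 of 15 transcripts were called lower. With group means removed it correlated with Cry2 at r = 0.62 and with Cry1 at −0.41. Of the choroid plexus markers only Ttr was listed, at 35.0 to 6685 in Sham and 21.0 to 8663 in HF-HI, and it correlated with Per3 at −0.52. The astrocyte sum, with 7 of 7 markers listed, was 37080 to 39703 in Sham and 36975 to 42365 in HF-HI. It correlated with Per2 at r = 0.73 and with Per3 at 0.55. Of its mean, 38393 in Sham and 39434 in HF-HI, a single Slc1a2 transcript (ENSMUST00000080210) held 29882 and 31224. The sum therefore mainly follows that gene. The cortical excitatory sum (8420.2 to 9548 in Sham and 8342 to 9851 in HF-HI) correlated with Cry1 at 0.60 and with Per2 at 0.55. Its largest part was Slc17a7, with 5141 of a mean of 8918 in Sham and 5303 of 9179 in HF-HI. The thalamic sum, with 2 of 4 markers listed, correlated with Cry2 at −0.54. Of the other markers, 1 transcript of cortical excitatory neurons, the Rorb transcript already named, was called higher and 1 of microglia lower. Of astrocytes, oligodendrocytes, hippocampal and thalamic neurons, vessels and blood, 0 were called. The r values in this paragraph were picked for their size from those of all the marker sums with each member. None was tested or adjusted for that choice, so they are a description. Those of 0.55, −0.41, −0.52 and −0.54 lay inside the middle range of r over all other genes for the same member, which is described further below. Those of 0.62, 0.73 and 0.60 lay outside it. The part of these cells in the member values was not tested.

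Which members varied together was asked after removing the group means, on log2(summed normalized count + 1). Of 21 pairs, 17 had an r above 0, with a median of 0.34 and a range from −0.43 (Per1 with Cry1) to 0.57 (Per3 with Nr1d1). No pair passed 0.05 after adjustment over the pairs (lowest adjusted p = 0.370, permutation within groups), and 0 passed it unadjusted by Pearson's r. By Spearman's rho 1 pair did so unadjusted, Per1 with Bhlhe41 (rho = 0.56, permutation p = 0.0283, adjusted p = 0.404, while r was 0.47 with p = 0.0907, and 0.61 without Sham replicates 4 and 5).

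All 15 pairs without Cry1 had r above 0, from 0.077 to 0.57 with a median of 0.37, whereas 4 of the 6 pairs with Cry1 were below 0. Some of these signs depended on single libraries. Per1 with Per2 and Per1 with Per3 were at −0.048 and −0.11 without HF-HI replicate 8, and Per1 with Nr1d1 at −0.054 without Sham replicate 4. Without the 2 farthest libraries, Per1 with Cry2 was at −0.024 and Cry1 with Cry2 moved from −0.16 to 0.35. Cry1 with Bhlhe41 was at r = −0.43 (permutation p = 0.126, adjusted p = 0.370; rho = −0.49, p = 0.0655), and with Per2 at 0.34 (p = 0.235, adjusted p = 0.380; rho = 0.35, p = 0.211). Pairs that share a gene are not independent, and for each member the middle 95% of r over all other genes reached 0.50 to 0.58.

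Per3 with Nr1d1 had the highest r, 0.57 (permutation p = 0.0596, adjusted p = 0.370), and a rho of 0.26 (p = 0.366). Without HF-HI replicates 2 and 7, the farthest libraries on Per3, r was −0.085, so that the relation rested on them. Cry2 with Bhlhe41 followed at r = 0.49 (p = 0.0711, adjusted p = 0.370; rho = 0.41, p = 0.131) and was 0.62 without Sham replicate 4 and HF-HI replicate 1. Per2 with Nr1d1 was at r = 0.47 (p = 0.0829, adjusted p = 0.370; rho = 0.52, p = 0.0578) and was 0.54 without HF-HI replicates 6 and 8. Per1 and Per2, the members with the largest differences between the groups, had an r of 0.099 (p = 0.747, adjusted p = 0.784; rho = 0.14, p = 0.635), which was 0.33 without Sham replicates 4 and 5, 0.41 without Sham replicate 5 and −0.048 without HF-HI replicate 8.

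Within a group, 7 of the 21 pairs had opposite signs in Sham and HF-HI, and the difference was not tested. In Sham, Per1 with Cry2 was at r = 0.94 (exact permutation p = 0.00317, adjusted p = 0.0667) and in HF-HI at −0.40 (p = 0.325). In HF-HI, Per3 with Nr1d1 was at 0.83 (exact p = 0.0135), Per2 with Per3 at 0.75 (exact p = 0.0336) and Cry1 with Bhlhe41 at −0.65 (exact p = 0.0415), against −0.60, −0.38 and −0.18 in Sham. None of these passed adjustment over the 21 pairs of its group. The group difference itself adds to the pairs when it is left in: without removing the group means the median r was 0.45 and the highest was that of Per2 with Nr1d1, at 0.72.

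**Figure D4:**
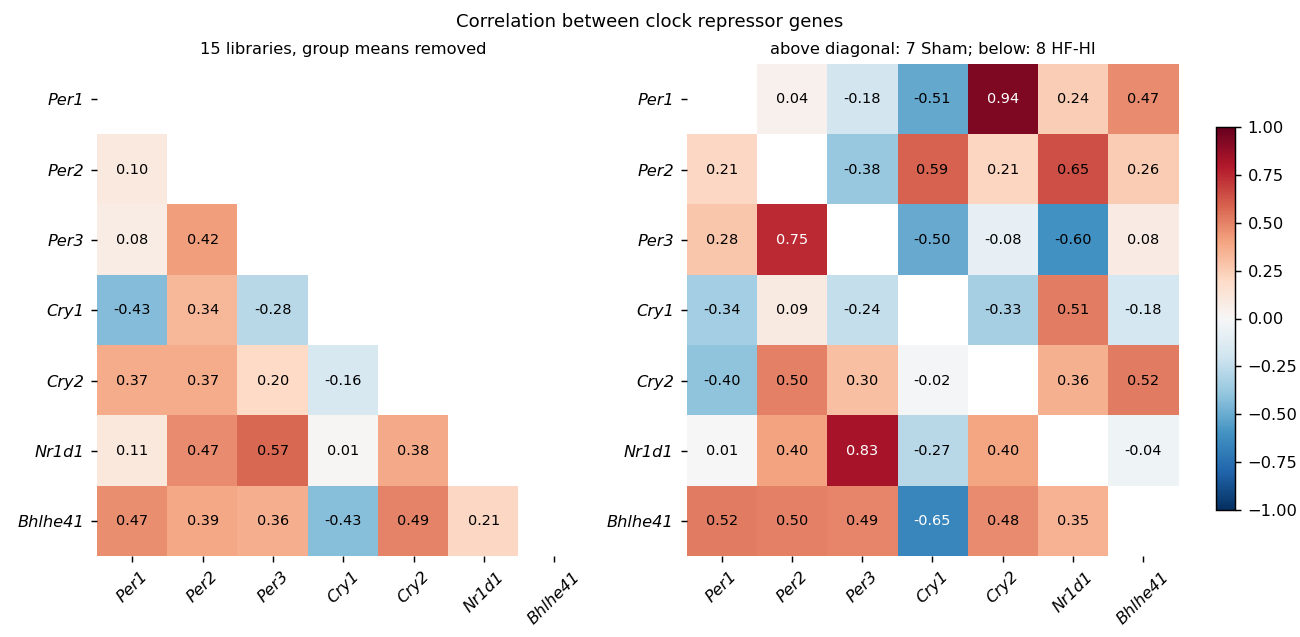
Pearson r between the member genes, on log2(summed normalized count + 1), with blue below 0 and red above. Left, all 15 libraries with group means removed, from −0.43 to 0.57; right, the 7 Sham libraries above the diagonal and the 8 HF-HI libraries below it, where Per3 with Nr1d1 is −0.60 and 0.83.

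The transcripts of a gene did not always move together either. The Per1 transcripts had a group-centred r of 0.59 (permutation p = 0.0222; rho = 0.55, p = 0.0422), which was 0.88 in Sham and 0.28 in HF-HI and 0.39 without Sham replicate 4 and HF-HI replicate 8. The Per3 transcripts had an r of −0.17 (p = 0.542; rho = −0.19, p = 0.494). Because eXpress divides reads among transcripts that share exons, a division that differs between libraries would lower these values, which was not tested.

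Against the 12 other clock genes listed, 84 pairs were examined, of which 0 passed an adjusted 0.05 and 5 passed unadjusted (permutation within groups). A count of 5 is close to what an unadjusted 0.05 passes by chance over 84 pairs, so these pairs are given as a description. Bhlhe40 entered 3 of the 5. Per2 with Bhlhe40 was at r = 0.75 (p = 0.0027, adjusted p = 0.113; rho = 0.79, p = 0.00138) and 0.82 without HF-HI replicates 6 and 8. Without HF-HI replicate 6 alone this pair passed, at 0.86 (adjusted p = 0.0428). With any other single library left out it did not pass, and its lowest r was 0.69. Nr1d1 with Bhlhe40 was at r = 0.65 (p = 0.00639, adjusted p = 0.179; rho = 0.74, p = 0.0031) and 0.70 without HF-HI replicates 2 and 7. Bhlhe41 with Bhlhe40 was at r = 0.60 (p = 0.0194, adjusted p = 0.408; rho = 0.54, p = 0.0380), but −0.061 without Sham replicate 2 and HF-HI replicate 8, on which it rested.

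**Figure D5:**
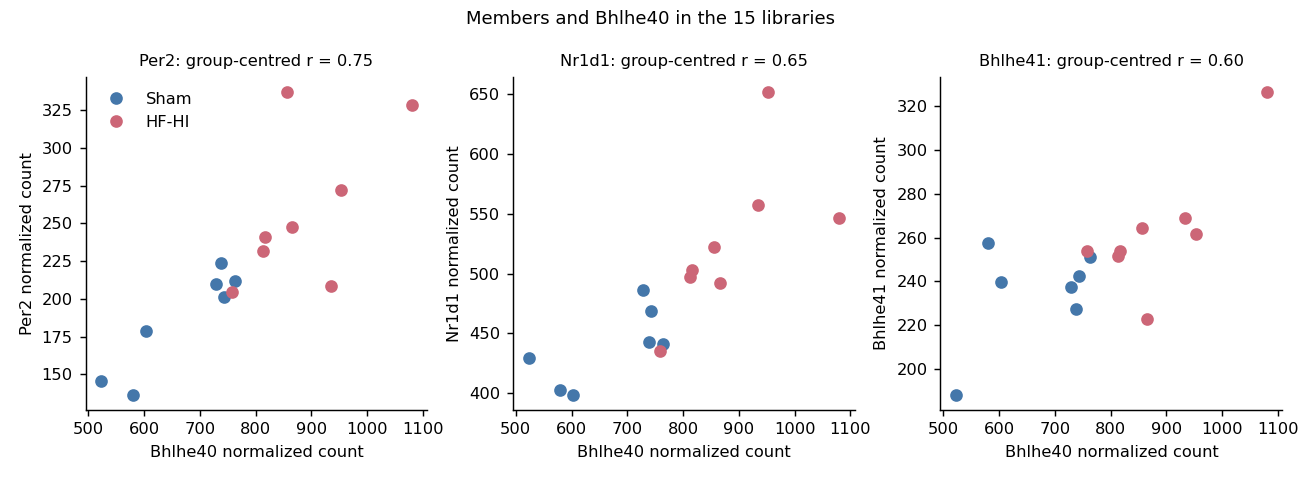
Normalized count of Per2, Nr1d1 and Bhlhe41 against that of Bhlhe40 in each library (blue Sham, red HF-HI), with r after removing group means (0.75, 0.65 and 0.60). Libraries with more Bhlhe40 tended to have more Per2 and Nr1d1 within each group, and a low Sham library and a high HF-HI library carry the Bhlhe41 panel.

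The other unadjusted pairs were Per1 with Wee1, a cell cycle kinase driven by E-boxes, at r = −0.79 (p = 0.00185, adjusted p = 0.113; rho = −0.77, p = 0.0019; −0.65 without Sham replicates 4 and 5), and Per2 with Hlf, a D-box activator, at 0.54 (p = 0.0454, adjusted p = 0.710; rho = 0.55, p = 0.0429; 0.54 without HF-HI replicates 6 and 8). Wee1 was not called between the groups (131 ± 19.9 against 135 ± 14.4 normalized counts, limma adjusted p = 0.922). Arntl, which the members act on, had no unadjusted pair with any of them.

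Across all genes, those most like each member over the 15 libraries, by group-centred r, were Cstf1, Mycbp2 and ENSMUST00000142037 for Per1, Rtn3, Map3k13 and Hivep3 for Per2, and Zfp938, Tmed5 and Sfr1 for Per3. For Cry1 they were Stac2, Anp32e and BC029722, for Cry2 AI837181, Grik3 and Slc8a2, for Nr1d1 Emsy, Sirpa and Mon2, and for Bhlhe41 Slc25a37, Ercc6 and Lyst. These r ran from 0.78 to 0.90, the highest of 7868 genes for each member, and are given as a description. No member was among the 3 of another. The nearest was Nr1d1 for Per3, at rank 198, and Cry1 was at rank 7359 for Per1.

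Seen by library, with group means left in, the high values gathered in a few HF-HI libraries. A member that is higher in HF-HI places HF-HI libraries among its highest, so these ranks do not show that members vary together. HF-HI replicates 6 and 8 were each among the 4 highest of 15 libraries in 6 of the 7 members, and HF-HI replicate 7 in 5. Sham replicate 2 was among the 4 lowest in 5 members and Sham replicate 3 in 4. HF-HI replicate 2, the library that stood apart on the first principal component, was among the 4 highest in 0 members, and without it 5 member transcripts and 4 member gene sums were still called.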

How the data were processed

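Total RNA was sequenced from mouse cortex in 7 Sham and 8 HF-HI libraries. Per the labels and the study's methods, stranded libraries were made after ribosomal RNA depletion, reads were aligned to mm10 with STAR, counted per Ensembl transcript with eXpress, and normalized with DESeq2. The annotation release and the strand setting of the counting are not given in the sources used here. The authors deposited variance-stabilized values on the log2 scale for 10370 transcripts, of which 10241 had an entry in GENCODE M21 (GRCm38) and 129 did not. Transcripts below a mean of 107.9 normalized counts were not analysed here. On the deposited scale, a doubling from 100 normalized counts is a step of 0.20 and from 1000 a step of 0.53, so differences are also given as ratios of mean counts on the log2 scale.

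The transformation was inverted, and 100.0% of values were whole multiples, within 0.1 reads, of a step per library (0.679 to 2.00 normalized counts), which gave whole reads and size factors. Deposited values were tested with limma 3.58.1 (R 4.3.3, eBayes with trend, group only, two-sided), with Benjamini-Hochberg adjustment over all transcripts. Reads summed per gene were tested with limma voom over 7869 genes or unmatched transcripts. Called means an unadjusted p under 0.05. Correlations used 100000 permutations within groups, or exact permutation within 1 group. Code was tested on simulated data. The labels do not state that each library is a separate animal, so p-values measure the spread between these libraries.

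Members and lists were chosen with earlier results of these data known. Named genes were all member transcripts, list genes that were called, a fixed set of clock genes, and the 3 genes most correlated with each member. The ratios between related genes and voom per transcript were added after seeing the data. Alternatives changed scaling, pseudocount, filter, prior, weights, depth covariate and replicate block, and left out each library. Promoter sequences were from RefSeq (GRCm38.p6).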

Additional observations from a re-analysis of the deposited data

Results flagged for a closer look

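The deposited value of each member transcript and the gene sums of Per1 and Per3 were examined for a library far from the rest of its group, in 22 groups of values, of which chance flags about 1 in 20. Both that stood out were of Bhlhe41. Sham replicate 2 was the lowest of the Sham libraries, and its gap to the next made up 0.586 of the range of the group, above the critical value of 0.568 for 7 libraries. HF-HI replicate 8 was the highest of the HF-HI libraries, with a gap of 0.532 of the range against a critical value of 0.526 for 8 libraries.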

How the results depend on the processing

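The count of member transcripts called was 5 to 6 and that of gene sums 4 to 5 with any 1 library left out, and Per1, Per2 and Nr1d1 kept their call under every alternative run that retained them. The filter on low values left 3 member transcripts (2 called) and 4 gene sums (3 called). That filter kept only rows with a mean above the median, and of these 516 transcripts and 410 gene sums were called. With the depth covariate, 533 were called over all transcripts and 485 over all gene sums, and Cry2 lost its call. The Bhlhe41 gene sum gained one with library sizes from summed reads (p = 0.0390), the covariate (p = 0.0434) and exact permutation (p = 0.0443), and without Sham replicate 1, Sham replicate 6 or HF-HI replicate 3 (lowest p = 0.0140). Library sizes from summed reads gave 67.6% of called genes higher against 54.6%, and 1 gene past the adjusted threshold. Leaving out a library gave 0 to 1 transcripts and 0 to 12 genes past it (12 without Sham replicate 4, 8 without Sham replicate 5). Without removing the group means, 6 member pairs passed 0.05. Without 1 library, 0 to 1 of the pairs with other clock genes passed, and the log2 difference of the Per3 transcript ratio ran from 0.099 to 0.28. Replicate numbers did not pair the libraries (same-number r from −0.138 to 0.0905, best match in 1 of 7). With the replicate block, 890 transcripts, 701 genes, 5 member transcripts and 4 member gene sums were called, and 0 member pairs passed. The fewest reads behind a member value were 62, and transcripts below the lowest listed mean were not analysed here. The hour of collection was not tested.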
